A study of Mus musculus with 6 samples.

Results

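The genes described here are 40 genes of the cell cycle and of DNA replication, out of 54532 genes listed for the hearts of wild-type mice (WT) and of mice lacking the melanocortin-4 receptor (Mc4r KO). They were matched by gene name to a list drawn up with earlier results of these data known, and comprise the cyclins and their kinase, the enzymes that copy DNA, and the kinases, motors and scaffold proteins that separate chromosomes and divide the cell. RNA with a poly(A) tail was sequenced from the hearts of 3 WT and 3 Mc4r KO mice, each 12 weeks of age, with 1 library per mouse. The Mc4r KO mice were homozygous for the knockout, with no tissue-specific driver named, and the WT mice were littermates from matings of heterozygous parents on a C57B/6/N background. The receptor, a G protein-coupled receptor best known from the hypothalamus, was itself at the limit of detection in heart. Mc4r had 2 reads in WT replicate 3 and 0 in the other 5 libraries, all under the floor of 3 reads, so the genotype could not be checked from its RNA.

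A cell that divides first licenses its replication origins by loading the MCM helicase, then copies its DNA in S phase under cyclin E and cyclin A, and then builds a spindle and splits under cyclin B, the Aurora kinases and Polo-like kinase. Most of these genes are transcribed only in cycling cells, because E2F factors and the MuvB complexes keep them off in resting cells and switch them on in order. In the adult heart most cardiomyocytes have left the cell cycle, and the dividing cells are mainly endothelial cells, fibroblasts and blood-derived cells. In RNA from whole tissue, fewer cells of a type and less RNA per cell cannot be told apart.

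Between 14691076 and 16047003 reads were counted on genes per library, and the floor of 3 reads was worth between 0.176 and 0.213 FPKM for 1 kb of gene. FPKM divides the fragments of a gene by its length and by a size set for the library, so levels can be compared between genes per length. The labels name the tissue as heart in one field and as muscle in the sample titles, and the study's discussion names tissue of the left ventricle. Heart muscle genes were abundant in every library, with a summed FPKM of the 8 cardiomyocyte markers between 7649 and 8931, whereas the 6 markers of skeletal muscle fibres summed to at most 1.49 and Myh4 was at 0. Mitochondrial transcripts took 47.1% to 59.3% of the summed FPKM in WT and 43.0% to 46.6% in Mc4r KO, without overlap. WT replicate 3 stood apart in markers of the atrium, with a sum of 797.5 against 6.29 to 136.5 in the other 5 libraries, and in epicardial markers, with 27.1 against 4.80 to 7.80.

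The promoters of 4 members are shown because these were the members with the lowest p-values in the comparison of Mc4r KO with WT that had an entry in the promoter table. Each sequence holds the 250 bases before the annotated start of the gene, 5′ to 3′ on the minus strand, from RefSeq on GRCm38.p6. Capitals mark a CHR element (TTTGAA), which the MuvB complexes bind, a CCAAT box (CCAAT), which the factor NF-Y binds, or an E2F site, searched on both strands. The E2F sites were the letters TTCCCGC, those of TTGGCGC, those of TTCGCGC and those of TTGCCGC. The windows were chr7:135716380-135716629, chr9:61946800-61947049, chr5:138171884-138172133 and chr11:99024190-99024439, in the order of the lines.
Mki67: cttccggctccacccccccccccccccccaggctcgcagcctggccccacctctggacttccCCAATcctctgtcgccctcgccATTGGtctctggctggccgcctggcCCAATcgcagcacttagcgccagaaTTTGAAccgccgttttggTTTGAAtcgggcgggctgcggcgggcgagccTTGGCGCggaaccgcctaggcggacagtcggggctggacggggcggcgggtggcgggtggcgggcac
Kif23: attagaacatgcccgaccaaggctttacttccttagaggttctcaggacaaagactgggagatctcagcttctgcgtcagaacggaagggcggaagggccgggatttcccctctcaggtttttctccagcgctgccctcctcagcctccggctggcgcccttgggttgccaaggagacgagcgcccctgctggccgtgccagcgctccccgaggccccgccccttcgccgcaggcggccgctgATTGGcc
Mcm7: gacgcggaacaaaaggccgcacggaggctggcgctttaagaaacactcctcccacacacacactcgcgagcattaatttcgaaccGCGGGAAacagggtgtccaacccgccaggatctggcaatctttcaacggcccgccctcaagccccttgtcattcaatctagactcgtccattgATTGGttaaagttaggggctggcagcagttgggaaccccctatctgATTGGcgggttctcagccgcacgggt
Top2a: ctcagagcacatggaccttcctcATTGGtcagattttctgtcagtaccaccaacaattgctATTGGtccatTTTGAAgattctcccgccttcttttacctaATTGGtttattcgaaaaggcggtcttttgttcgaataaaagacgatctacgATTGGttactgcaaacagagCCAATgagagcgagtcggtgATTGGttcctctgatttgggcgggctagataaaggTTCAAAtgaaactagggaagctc
The Mki67 window held 3 CCAAT boxes, 2 CHR elements at 116 and 98 bases before the start, and an E2F site at 67 bases. The Top2a window held 6 CCAAT boxes and 2 CHR elements, at 179 and 23 bases before the start, and no E2F letters. In the Kif23 window the only match was a CCAAT box at 7 bases before the start. The Mcm7 window held 1 E2F site and 2 CCAAT boxes, and the RefSeq start lay 539 bases inside the deposited gene model.

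Such letters were common over the members. Of the 34 members with an entry, 27 held a CCAAT box (79.4%, against 35.2% of 20451 promoter windows of the same length), 10 held a CHR element (29.4% against 15.3%) and 9 held an E2F site (26.5% against 9.40%). A CHR element and a CCAAT box stood in the same window in 9 members (26.5% against 5.44%), namely Ccnb2, Cdc20, Cdk1, Ect2, Kif11, Mcm2, Mki67, Top2a and Ube2c. A match describes the letters and is not a measured site. Ccna2, Ccne2, Aurkb, Kif20a, Tpx2 and Mcm4 had no entry.

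Transcripts of the cell cycle were scarce in these hearts. The median level of the members was 0.331 FPKM, against 2.06 over the 18035 genes that were tested, those whose mean FPKM reached 0.1, and 37 members lay below the latter. Only 7 members reached a mean of 1 FPKM, 6 of them with parts in DNA replication: Pcna, Mcm4, Mcm7, Mcm6, Mcm3 and Rrm1. The seventh was Cenpf, a kinetochore protein. Another 28 members lay between 0.1 and 1 FPKM, and 5 members, Bub1, Cenpe, Ccnb1, Kif15 and Ttk, were below 0.1 FPKM and were not tested. Pcna had the highest level per length, 12.2 FPKM, followed by Mcm4 at 2.28 FPKM. Counting error was large, since the median member had 23.4 reads per library and 16 members had under 20.

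**Figure D1:**
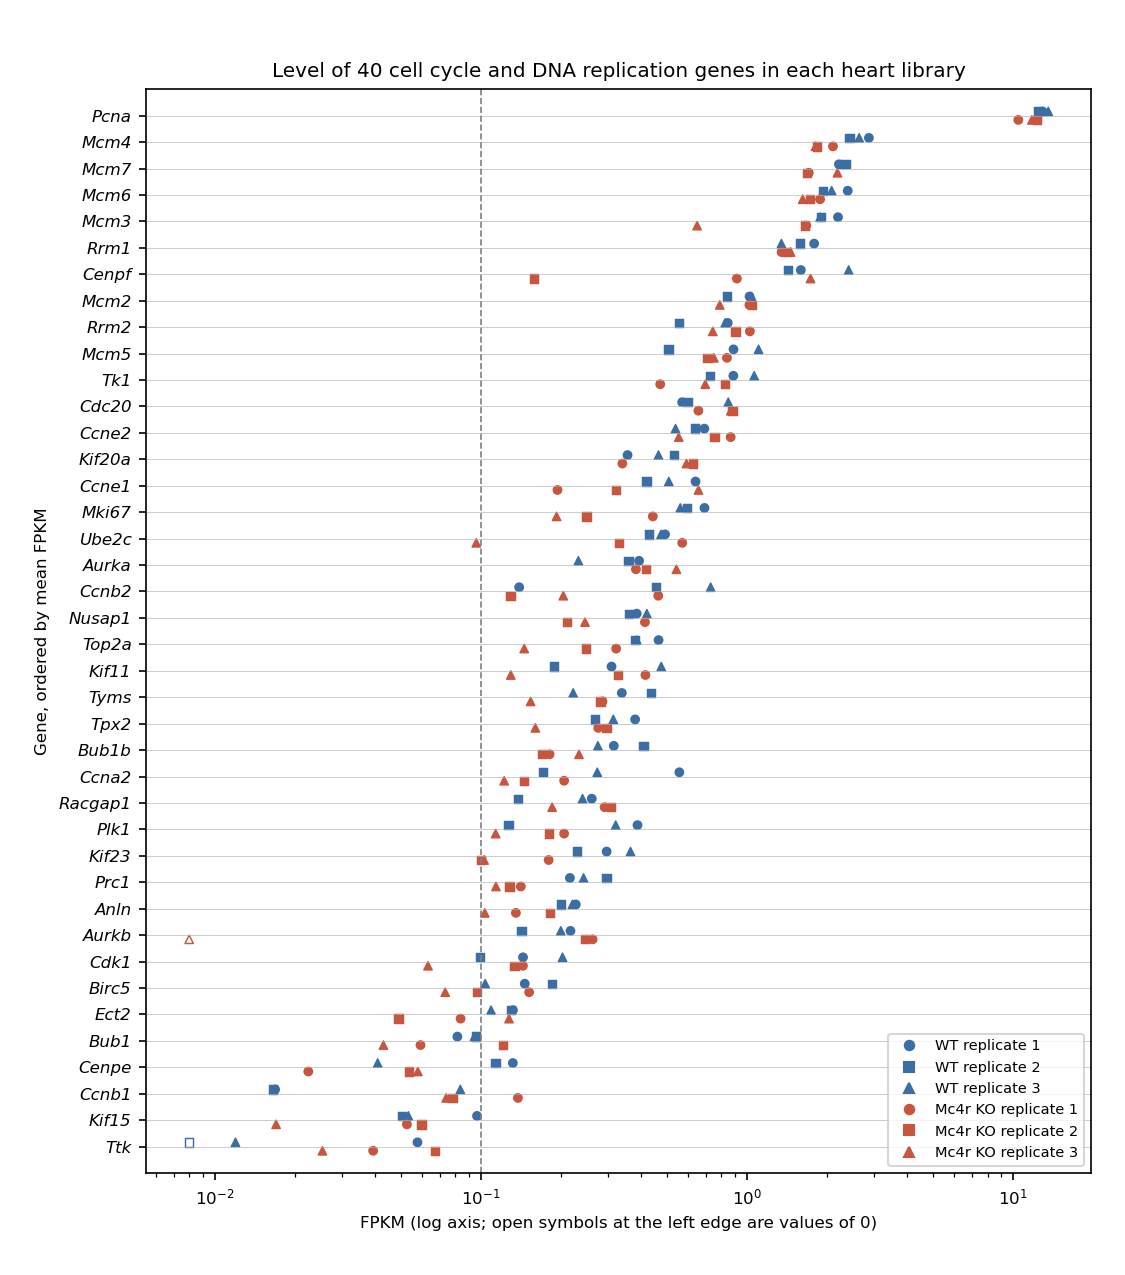
FPKM of each of the 40 genes on a log axis, 1 symbol per library, with WT in blue and Mc4r KO in red, genes ordered by mean FPKM and the dashed line at the filter of 0.1. Pcna stands alone near 12.2 FPKM, 28 genes lie between 0.1 and 1 FPKM, and the Mc4r KO symbols of Mcm3, Cenpf, Ube2c and Aurkb each include 1 library far to the left.

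No member passed the test between Mc4r KO and WT. With limma on log2(FPKM + 0.1), a call needed an adjusted p under 0.05 over all 18035 genes and an absolute log2 fold change above 0.75. By this rule 0 of 35 tested members were called, against 83 of all genes tested (0.460%), of which 26 were lower (0.144%) and 57 higher (0.316%) in Mc4r KO. The adjusted p of the members ranged from 0.124 for Mcm4 to 0.954 for Mcm2 in the limma fit. Their log2 fold changes ranged from -1.25 for Cenpf to 0.36 for Aurka, with a median standard error of 0.31. A change of the size needed for a call, 0.75, lay within the 95% interval of 22 members in the downward direction and of 9 in the upward direction, so the data did not bound such changes for these members.

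The direction of the estimates was uneven. Log2 fold changes were negative for 29 of the 35 tested members (82.9%), against 51.2% of all genes tested. Their median was -0.31, against -0.01 over all genes. The 6 members with positive values were Aurka, Ccne2, Cdc20, Kif20a, Racgap1 and Rrm2. All 3 Mc4r KO libraries lay below all 3 WT libraries for 11 members (31.4%, against 12.4% of all genes tested), and above them for 0 members (against 14.1%). These 11 were Mcm3, Mcm4, Mcm6, Mcm7, Pcna, Mki67, Top2a, Bub1b, Kif23, Prc1 and Anln. At an unadjusted p under 0.05 in limma, 2 of the 35 tested members were lower in Mc4r KO, a smaller share than the 8.83% of all genes. At that threshold 0 members were higher (12.0% of all genes were). The members are co-regulated and were measured in the same libraries, so their directions are not independent of each other.

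The 2 members with an unadjusted p under 0.05 were Mcm4 and Mki67. Mcm4, a subunit of the MCM helicase, lies at chr16:15623897-15637400 on the minus strand of mm10 (ENSMUSG00000022673). Its FPKM in replicates 1, 2 and 3 was 2.87, 2.43 and 2.63 in WT and 2.10, 1.83 and 1.81 in Mc4r KO, the order in which all values per library are given here. Every Mc4r KO library was below every WT library, and the spread within each group was close to counting error. The means were 2.64 ± 0.220 in WT and 1.91 ± 0.162 in Mc4r KO (SD, n = 3 each). The log2 fold change was -0.45 with a standard error of 0.13 and a 95% interval from -0.74 to -0.15 (limma, unadjusted p = 0.00951, adjusted p = 0.124).

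Mki67 encodes Ki-67, the protein that coats mitotic chromosomes and is stained to count cycling cells. It lies at chr7:135689784-135716361 on the minus strand of mm10 (ENSMUSG00000031004), and its promoter carries all 3 kinds of motif searched. Its FPKM was 0.691, 0.595 and 0.560 in WT and 0.442, 0.249 and 0.192 in Mc4r KO, from 98, 86 and 96 reads in WT and 69, 38 and 31 in Mc4r KO. The WT libraries were close together and the Mc4r KO libraries were all lower, with replicate 1 highest among them and replicate 3 lowest. The variance among the Mc4r KO libraries was 9.21 times that of counting alone. Mean FPKM was 0.615 ± 0.0676 in WT and 0.294 ± 0.131 in Mc4r KO (SD, n = 3 each), a ratio of 0.478. The log2 fold change was -0.91 with a standard error of 0.30 and an interval from -1.60 to -0.21 (limma, unadjusted p = 0.018, adjusted p = 0.156). Limma voom on the reads recovered from the FPKM weights each gene in each library by the precision expected at its fitted count. With limma voom, Mki67 was the 1 member called (log2 fold change -1.14, standard error 0.28, adjusted p = 0.0463), among 317 genes called (1.76%). Its unadjusted p was no longer under 0.05 in limma when WT replicate 1, Mc4r KO replicate 2 or Mc4r KO replicate 3 was left out. The study itself tested counts with DESeq2, and it lists Mki67 among the hub genes chosen from its differentially expressed genes.

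**Figure D2:**
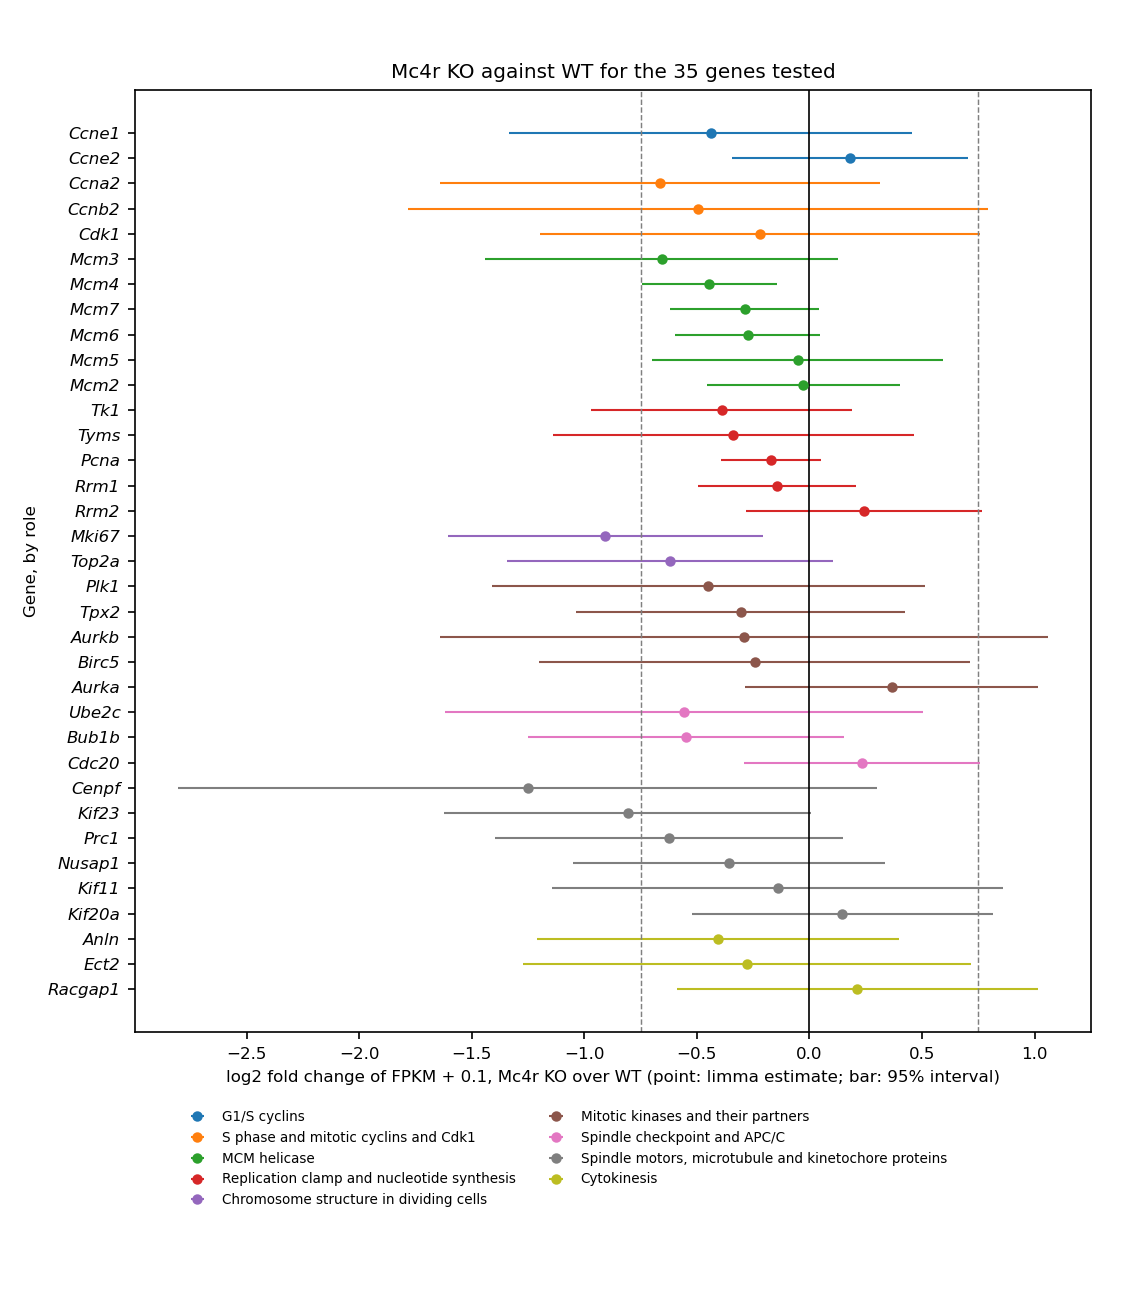
Log2 fold change of FPKM + 0.1 in Mc4r KO over WT for the 35 tested genes, grouped by role, with points for the limma estimate and bars for its 95% interval; dashed lines mark 0.75 in either direction. The estimates of 29 genes lie left of 0, and the intervals of Mcm4 and Mki67 are the 2 that do not include 0.

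The 6 subunits of the MCM helicase, which load at origins and unwind DNA at the fork, were measured more precisely than most members, with 49.5 to 140.3 reads on average. Their summed FPKM was 11.6, 9.93 and 11.0 in WT and 9.21, 8.64 and 7.79 in Mc4r KO, and the 2 groups did not overlap. All 6 estimates were negative, with a median of -0.28. Of the 11 members lower without overlap, 4 were MCM subunits (12.4% of all genes tested were lower without overlap). After quantile normalization the estimates of Mcm2 and Mcm5 were positive. FPKM of Mcm7 was 2.21, 2.34 and 2.26 in WT and 1.70, 1.68 and 2.18 in Mc4r KO, so Mc4r KO replicate 3 came close to the WT libraries. Mcm7 shares 12.6% of its exon bases with neighbouring genes and 23.3% of its 50-base words with other transcripts, and reads there could be lost or counted elsewhere.

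Mcm6 stood at 2.39, 1.93 and 2.08 in WT and 1.88, 1.72 and 1.62 in Mc4r KO, and its highest Mc4r KO library was just under its lowest WT library. FPKM of Mcm3 was 2.19, 1.89 and 1.88 in WT and 1.67, 1.65 and 0.648 in Mc4r KO. Mc4r KO replicate 3 held 39 reads of Mcm3 where the other 5 libraries held 94 to 120, and the variance among the Mc4r KO libraries was 15.4 times that of counting. The separation of the groups was narrow without that library, with 1.67 as the highest of the other Mc4r KO values and 1.88 as the lowest WT value. The remaining subunits overlapped between the groups. Mcm2 measured 1.02, 0.841 and 1.04 in WT and 1.02, 1.04 and 0.789 in Mc4r KO, and Mcm5 measured 0.888, 0.506 and 1.10 in WT and 0.839, 0.709 and 0.749 in Mc4r KO, with WT replicate 2 the lowest library for Mcm5.

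The sliding clamp and the enzymes that make deoxynucleotides summed to 16.7, 15.7 and 17.0 in WT and 13.6, 15.7 and 14.8 in Mc4r KO, and the ranges met at WT replicate 2 and Mc4r KO replicate 2. Pcna, the clamp that tethers polymerases to DNA and also serves in repair, measured 12.9, 12.4 and 13.5 in WT and 10.4, 12.3 and 11.7 in Mc4r KO. Its WT libraries were all above its Mc4r KO libraries, but WT replicate 2 and Mc4r KO replicate 2 differed by less than counting error. The log2 fold change of Pcna was -0.17 with a standard error of 0.09, the smallest error of any member. A copy, Pcna-ps2, takes part in the 19.1% of Pcna words shared with other transcripts.

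Rrm1 and Rrm2 encode the large and small subunits of ribonucleotide reductase and had estimates of opposite sign. Rrm1 measured 1.78, 1.58 and 1.34 in WT and 1.35, 1.41 and 1.46 in Mc4r KO, while Rrm2 measured 0.845, 0.553 and 0.826 in WT and 1.02, 0.903 and 0.742 in Mc4r KO. Both overlapped between the groups. Tk1, the thymidine kinase of S phase, measured 0.887, 0.723 and 1.06 in WT and 0.471, 0.823 and 0.696 in Mc4r KO, with Mc4r KO replicate 1 the lowest library. Tyms, the thymidylate synthase, measured 0.338, 0.435 and 0.222 in WT and 0.286, 0.281 and 0.154 in Mc4r KO, and its groups overlapped too.

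Mki67 and Top2a, both proteins of chromosome structure in dividing cells, were the group with the lowest median estimate, -0.76. Top2a, the topoisomerase that untangles sister chromatids, measured 0.464, 0.379 and 0.384 in WT and 0.322, 0.248 and 0.145 in Mc4r KO, from 59, 49 and 59 reads in WT and 45, 34 and 21 in Mc4r KO. All Mc4r KO libraries were below the WT libraries, replicate 1 again the highest of them and replicate 3 the lowest, and the estimate was -0.62 with a standard error of 0.31. The summed FPKM of the pair was 1.16, 0.974 and 0.945 in WT and 0.764, 0.497 and 0.337 in Mc4r KO.

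Cyclins and Cdk1 gave a mixed picture at low counts. Cyclin E, which starts S phase, is encoded by Ccne1 and Ccne2. Ccne1 measured 0.639, 0.419 and 0.507 in WT and 0.194, 0.321 and 0.656 in Mc4r KO, so the 2 groups overlapped and Mc4r KO replicate 3 was the highest library. Ccne2 measured 0.690, 0.638 and 0.538 in WT and 0.866, 0.753 and 0.553 in Mc4r KO, with a positive estimate, and 17.4% of its exon bases are shared with the neighbouring gene Ints8.

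Ccna2, the cyclin of S phase and G2, measured 0.556, 0.171 and 0.273 in WT and 0.205, 0.145 and 0.122 in Mc4r KO. WT replicate 1 was far above the other 5 libraries, among which the groups overlapped. Ccnb2, a cyclin of mitosis, measured 0.139, 0.455 and 0.729 in WT and 0.463, 0.129 and 0.204 in Mc4r KO and was spread in both groups. Cdk1, the kinase that these cyclins activate, measured 0.144, 0.0988 and 0.202 in WT and 0.144, 0.133 and 0.0632 in Mc4r KO. Ccnb1 had only 1, 1 and 6 reads in WT and 9, 5 and 5 in Mc4r KO and shares 23.4% of its words with other transcripts, among them the pseudogene Ccnb1-ps, so its level is uncertain.

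The kinases of mitosis overlapped between the groups without exception. Aurka, which matures the spindle poles, had the highest estimate of all members, 0.36 with a standard error of 0.28, and measured 0.392, 0.358 and 0.232 in WT and 0.382, 0.416 and 0.542 in Mc4r KO. Tpx2, its activator on the spindle, measured 0.379, 0.268 and 0.314 in WT and 0.276, 0.296 and 0.160 in Mc4r KO. Plk1, the Polo-like kinase, measured 0.387, 0.127 and 0.320 in WT and 0.205, 0.180 and 0.113 in Mc4r KO.

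Aurkb and Birc5 belong to the chromosomal passenger complex, which corrects faulty spindle attachments. Aurkb had 9, 6 and 10 reads in WT and 12, 11 and 0 in Mc4r KO. In Mc4r KO replicate 3, with the count of 0, the floor of 3 reads would have been worth 0.0635 FPKM. The other Mc4r KO libraries, at 0.262 and 0.246 FPKM, were above all 3 WT libraries of Aurkb. Birc5 measured 0.146, 0.184 and 0.104 in WT and 0.152, 0.0967 and 0.0733 in Mc4r KO.

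Among the genes of the spindle checkpoint and the anaphase-promoting complex, Bub1b showed no overlap. Bub1b encodes BubR1, an inhibitor of that complex, and measured 0.315, 0.407 and 0.275 in WT and 0.181, 0.169 and 0.233 in Mc4r KO, with an estimate of -0.55 and a standard error of 0.30. Cdc20, the activator that the checkpoint holds back, measured 0.570, 0.596 and 0.849 in WT and 0.655, 0.881 and 0.868 in Mc4r KO and had a positive estimate. Ube2c, the ubiquitin-conjugating enzyme of the complex, measured 0.491, 0.429 and 0.474 in WT and 0.570, 0.329 and 0.0959 in Mc4r KO. Mc4r KO replicate 3 had 4 reads of Ube2c where replicate 1 had 23, and 22.8% of the exon bases of Ube2c are shared with Tnnc2. The checkpoint kinases Bub1 and Ttk were too low to be tested, with at most 0.121 and 0.0669 FPKM in any library.

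The motors, microtubule and kinetochore proteins had a median estimate of -0.49. Of the 6 tested, 2 were lower without overlap (against 12.4% of all genes tested), both among the 11 members counted above. Cenpf, a large kinetochore protein, had the lowest estimate of all members, -1.25, but with a standard error of 0.66 and an interval from -2.80 to 0.30. Its FPKM was 1.59, 1.43 and 2.41 in WT and 0.914, 0.158 and 1.73 in Mc4r KO, from 346, 316 and 632 reads in WT and 219, 37 and 428 in Mc4r KO. Mc4r KO replicate 2 stood apart from the rest, whereas replicate 3 was above 2 of the 3 WT libraries. Counting error does not cover this spread: the variance was 36.7 times counting in WT and 157 times in Mc4r KO. No other member with a mean above 1 FPKM varied as much.

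Kif23 and Prc1 work together on the central spindle, where the motor and the bundling protein prepare the cut between the daughter cells, and neither overlapped between the groups. Kif23 measured 0.296, 0.229 and 0.364 in WT and 0.179, 0.09997 and 0.103 in Mc4r KO, from 33, 26 and 49 reads in WT and 22, 12 and 13 in Mc4r KO, a ratio of means of 0.429 and the lowest of the members. Its estimate was -0.81 with a standard error of 0.35. Prc1 measured 0.216, 0.296 and 0.243 in WT and 0.141, 0.128 and 0.114 in Mc4r KO, with an estimate of -0.62 and a standard error of 0.33, and it shares 11.1% of its exon bases with Rccd1. For Kif23 the gap between the groups ran from 0.179, the highest Mc4r KO value, to 0.229, the lowest WT value.

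The other spindle genes overlapped. Nusap1, which bundles spindle microtubules, measured 0.384, 0.360 and 0.420 in WT and 0.413, 0.211 and 0.246 in Mc4r KO, with Mc4r KO replicate 1 inside the WT range. Kif11, the motor that pushes the poles apart, measured 0.309, 0.188 and 0.475 in WT and 0.414, 0.328 and 0.129 in Mc4r KO. Kif20a, a motor of the late spindle, measured 0.355, 0.532 and 0.464 in WT and 0.339, 0.624 and 0.591 in Mc4r KO, but 29.3% of its exon bases are shared with Cdc23, the largest such share among the members. Cenpe and Kif15 were too low to be tested, with highest values of 0.132 and 0.0965 FPKM, both in WT replicate 1.

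For cytokinesis, Anln, a scaffold of the contractile ring, showed no overlap and measured 0.227, 0.200 and 0.220 in WT and 0.135, 0.182 and 0.103 in Mc4r KO. Racgap1 and Ect2, which switch on RhoA at the cut, did not share a direction. Racgap1 measured 0.261, 0.138 and 0.241 in WT and 0.291, 0.307 and 0.185 in Mc4r KO with a positive estimate, and Ect2 measured 0.132, 0.129 and 0.109 in WT and 0.0837, 0.0489 and 0.127 in Mc4r KO with a negative estimate.

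Over libraries, the mean log2(FPKM + 0.1) of the 35 tested members was -0.52, -0.70 and -0.52 in WT and -0.74, -0.90 and -1.04 in Mc4r KO. WT replicates 1 and 3 were highest, WT replicate 2 and Mc4r KO replicate 1 were close, and Mc4r KO replicate 3 was lowest. Mc4r KO replicate 3 was the lowest library for 19 of 40 members and Mc4r KO replicate 2 for 7, whereas WT replicate 1 was the highest for 13 and WT replicate 3 for 9. The median ratio of the variance to counting error was 1.08 in WT and 1.76 in Mc4r KO. The ratio was above 5 for 4 members in WT and for 7 in Mc4r KO. With 3 libraries per group, such a ratio cannot show that a spread is that of counting alone. Without Mc4r KO replicate 3, 14 members lay lower without overlap (against 16.9% of all genes tested) and 4 lay higher, Aurkb, Ccne2, Racgap1 and Rrm2 (against 17.8%). Leaving out WT replicate 3, the library with the highest sums of atrial and epicardial markers, gave 14 members lower (22.7% of all genes) and 1 higher, Cdc20 (22.3%). Quantile normalization gave 9 lower (12.4% of all genes), with Mcm7 and Anln no longer among them, and 1 higher, Aurka (12.6%). Scaling outside the mitochondrial chromosome gave 14 lower (22.3%) and 0 higher (6.42%).

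**Figure D3:**
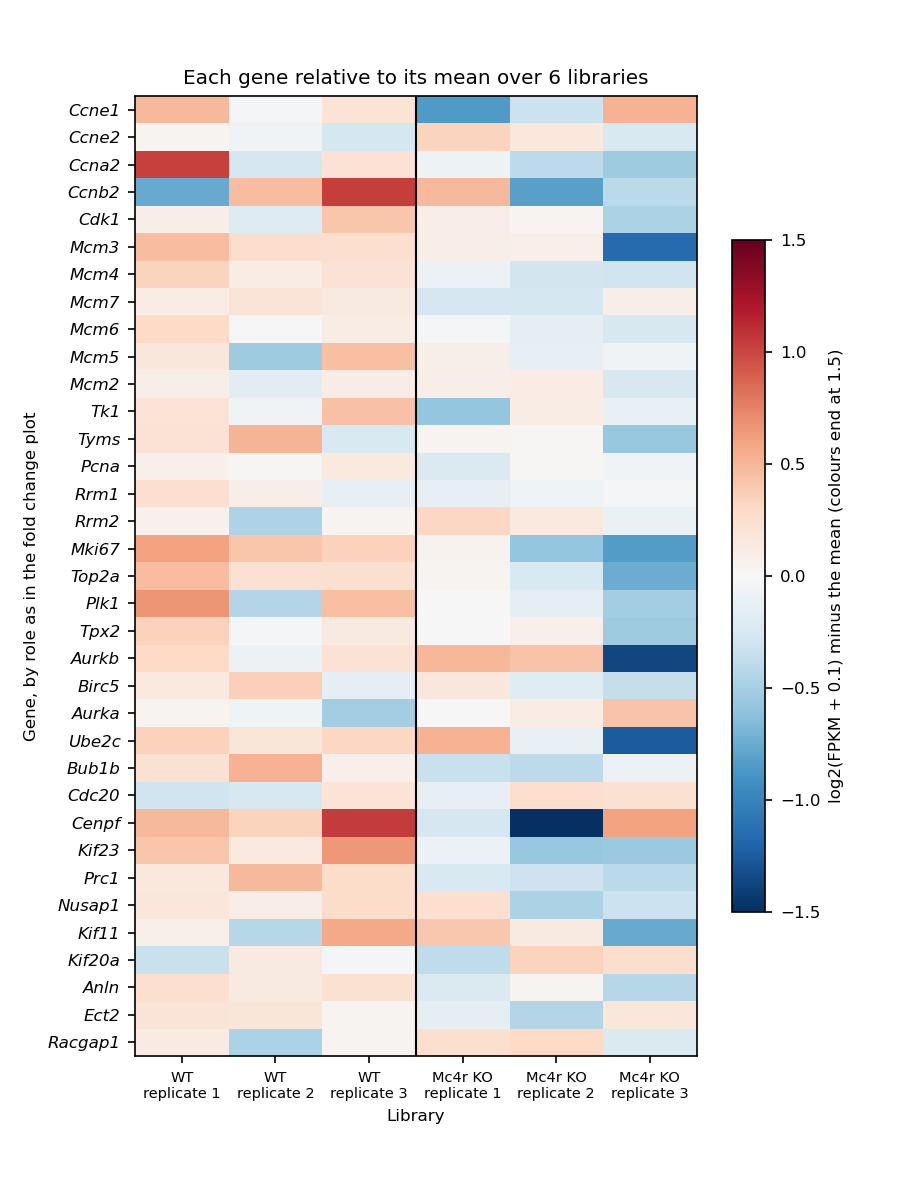
Log2(FPKM + 0.1) of each tested gene minus its mean over the 6 libraries, with red above and blue below the mean, genes by role and libraries in columns, WT left of the line. The mean is lower in Mc4r KO for 29 of the 35 genes, Mc4r KO replicate 3 is the lowest library for 19 of the 40 members, and single dark cells mark Cenpf in Mc4r KO replicate 2 and Mcm3, Aurkb and Ube2c in Mc4r KO replicate 3.

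The summed FPKM of all 40 members was 38.7, 34.6 and 39.2 in WT and 31.3, 31.4 and 30.1 in Mc4r KO, without overlap between the groups. Pcna made up a large part of this sum, and without it the sum was 25.8, 22.3 and 25.6 in WT and 20.9, 19.1 and 18.4 in Mc4r KO, again without overlap. FPKM are relative to a library size, so the mitochondrial share bears on such sums. The library size implied by the deposited FPKM was not the plain count of reads on genes. It was 0.955, 0.965 and 1.06 times that count in WT and 1.06, 0.978 and 1.03 times in Mc4r KO. When the FPKM were scaled to the sum outside the mitochondrial chromosome, the median estimate over all genes moved from -0.01 to -0.19, and that over the members from -0.31 to -0.47. The median of the members minus that of all genes was -0.28 in this scaling and -0.295 in the FPKM as deposited. In that scaling 30 of 35 members had a negative estimate. With the mitochondrial share as a covariate, 27 were negative and the median was -0.36, but Mcm4 and Mki67 no longer had an unadjusted p under 0.05 in limma, while Ccnb2 did.

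Markers of cell types that could hold dividing cells were measured beside the members. None of the 68 tested markers in 13 lists was called, and at an unadjusted p under 0.05 in limma 15 were lower (22.1%, against 8.83% of all genes) and 4 higher (5.9% against 12.0%). The summed FPKM of the 7 fibroblast markers, none at 0, was 235.7 to 257.7 in WT and 181.3 to 210.9 in Mc4r KO, without overlap. Dcn, a matrix proteoglycan and the most abundant of them, measured 125, 124 and 109 in WT and 87.1, 77.1 and 83.0 in Mc4r KO. The sum without Dcn was 110.4 to 148.6 in WT and 99.95 to 123.8 in Mc4r KO, so the separation of the sum rested on Dcn. Lum and Pdgfra were lower without overlap too, whereas the collagen genes Col1a1 and Col1a2 overlapped and had positive estimates, 0.44 and 0.03. B cell markers, of which none was at 0 in every library, summed to 1.22 to 3.01 in WT and 0.437 to 0.609 in Mc4r KO. Without Cd79b, the most abundant of them, these sums overlapped, with 0.490 to 1.98 in WT and 0.122 to 0.563 in Mc4r KO.

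Cardiomyocyte markers, none at 0, had sums of 7649 to 8037 in WT and 8152 to 8931 in Mc4r KO, but without Myh6 the sums overlapped, with 5323 to 5485 and 5456 to 5849. Of the 8 cardiomyocyte markers, Myl2 and Ryr2 were higher without overlap, and Tnni3, Pln and Ttn had negative estimates. The sums of endothelial markers did not separate the groups, at 185.4 to 220.6 in WT and 195.0 to 230.7 in Mc4r KO. Nor did those of macrophage markers, at 178.6 to 277.7 and 218.8 to 278.7. Of the 8 endothelial markers, 6 had positive and 2 negative estimates, with a median of 0.06. Tie1 and Egfl7 were higher without overlap, with estimates of 0.42 and 0.32 (limma adjusted p = 0.0744 and 0.166). Without Cdh5, the most abundant of them, the endothelial sums still overlapped, with 130.6 to 148.8 and 137.5 to 164.6. Of the 7 macrophage markers, Csf1r, Mrc1 and Cd68 had an unadjusted p under 0.05 in limma and lower means in Mc4r KO, whereas C1qa, C1qb and Lyz2 had positive estimates, 0.63, 0.31 and 0.14, and the median of the list was -0.03. Erythroid markers summed to 4498, 860.4 and 6345 in WT and 1652, 663.8 and 621.4 in Mc4r KO. WT replicates 1 and 3 were highest and Mc4r KO replicate 3 lowest, as in the mean of the tested members. Of the 7 erythroid markers, 6 had negative estimates and 1 a positive one, with a median of -1.64. An unadjusted p under 0.05 in limma was reached by 4 of them. Neutrophil markers, of which Ly6g was at 0, ran from 1.68 to 15.1 in WT and from 1.504 to 3.33 in Mc4r KO. All 4 tested neutrophil markers had negative estimates, with a median of -1.43, and 2 had an unadjusted p under 0.05 in limma. T cell markers spanned 0.221 to 1.34 in WT and 0.313 to 1.84 in Mc4r KO, and those of smooth muscle cells and pericytes 233.8 to 304.6 and 203.9 to 301.9. Adipocyte markers were near 0, at most 0.450, with Lep and Retn at 0 in every library. The part of fibroblasts or blood cells in the values of the members was not tested.

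**Figure D4:**
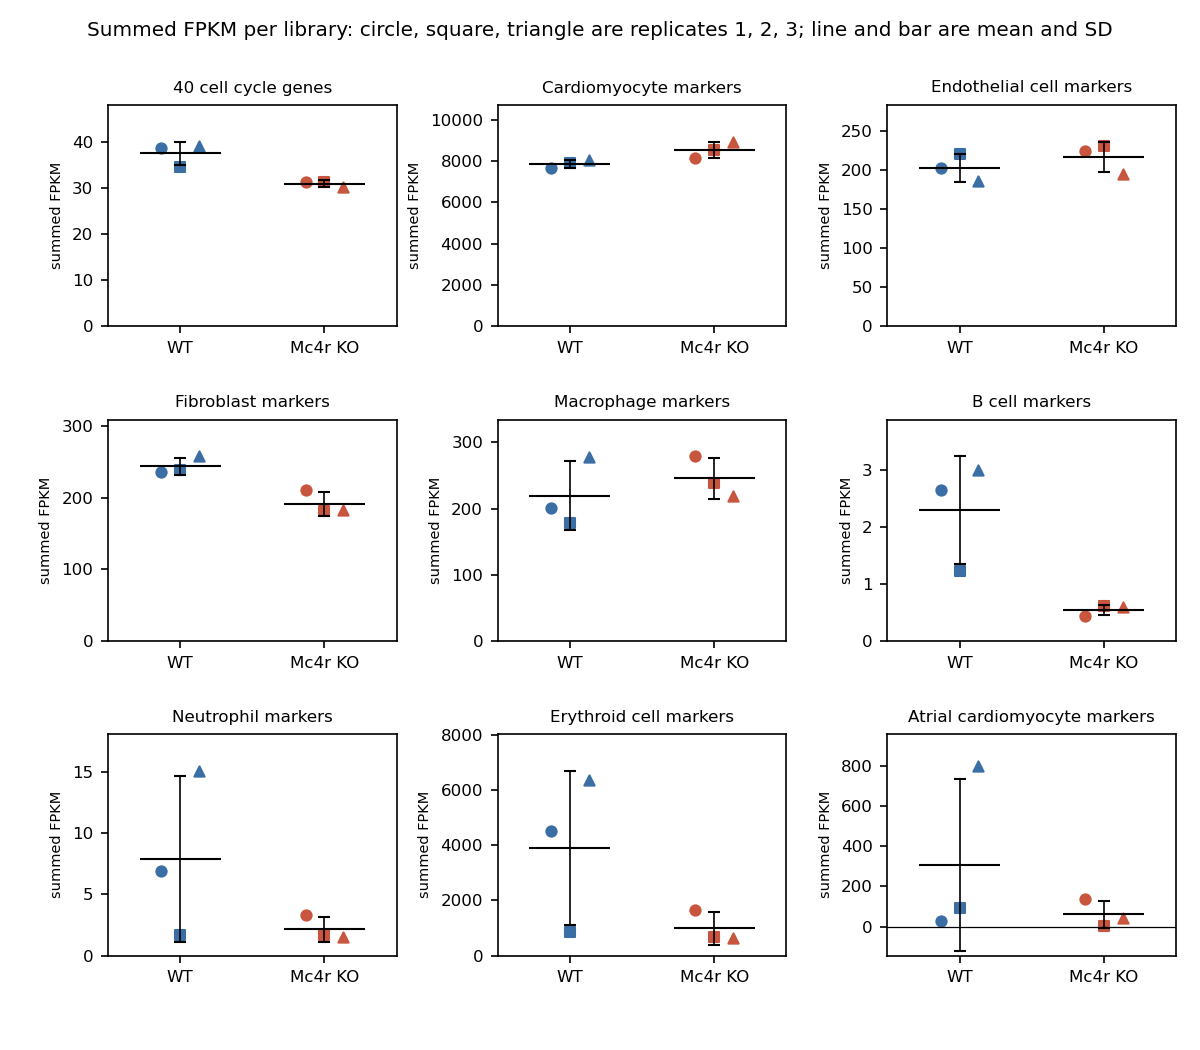
Summed FPKM in each library of the 40 cell cycle genes and of 8 lists of cell type markers, with WT in blue and Mc4r KO in red, symbols for the replicates, and a line and bar for the mean and SD of 3 libraries; each panel has its own axis. The sums of the cell cycle genes, the fibroblast markers and the B cell markers do not overlap between the groups and are lower in Mc4r KO, nor do those of the cardiomyocyte markers, which are higher in Mc4r KO, whereas those of endothelial cells and macrophages overlap.

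Other genes of the same pathway, 127 in 8 lists, were counted in the same fit. Of 106 tested, 0 were called lower and 1 was called higher (against 0.144% and 0.316% of all genes tested). Log2 fold changes were negative for 71 (against 51.2% of all genes) and positive for 35, with a median of -0.15. Without overlap between the groups, 18 were lower and 14 higher (against 12.4% and 14.1% of all genes). The called gene was Cdkn1a, which encodes the kinase inhibitor p21 that halts cells before S phase. Its FPKM was 2.42, 3.57 and 5.34 in WT and 14.4, 14.1 and 21.4 in Mc4r KO, and the lowest Mc4r KO value was above the highest WT value (log2 fold change 2.15, standard error 0.29, limma adjusted p = 0.0415). None of the other 6 kinase inhibitors was called. Of these, Cdkn2d was higher without overlap (log2 fold change 0.54, limma adjusted p = 0.105), and 5 had negative estimates. Among the G1 cyclins and kinases, 10 of 14 tested had a negative estimate and the 3 with the lowest p were Cdk6, Cks2 and Fzr1, with log2 fold changes of -0.66, -1.74 and 0.43 and limma adjusted p of 0.13, 0.134 and 0.168. Cks2 had 2 to 19 reads per library.

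The licensing genes held the other low p-value. Gmnn encodes geminin, which binds Cdt1 and so prevents origins from being licensed again in the same cycle, and it measured 18.9, 18.9 and 18.3 in WT and 26.4, 30.6 and 29.4 in Mc4r KO. All Mc4r KO libraries were above the WT libraries, and the log2 fold change of 0.62 (standard error 0.08, limma adjusted p = 0.0415) passed the threshold on p but not that on the fold change. Orc5 and Cdt1, both needed to load MCM proteins, had estimates of -0.44 and -0.66, with limma adjusted p of 0.184 and 0.236. No gene of this list was called, and 10 of 17 tested had a negative estimate.

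The condensins, which compact mitotic chromosomes, had 5 of 7 estimates below 0 and a median of -0.22. Smc4 measured 3.62, 3.70 and 3.31 in WT and 2.40, 1.88 and 1.93 in Mc4r KO, without overlap (log2 fold change -0.76, limma adjusted p = 0.058). Smc2, its partner in the ring, measured 0.958, 0.902 and 1.13 in WT and 0.635, 0.541 and 0.569 in Mc4r KO, also without overlap (-0.68, limma adjusted p = 0.108), and Ncapg2 had an estimate of -0.77 (limma adjusted p = 0.198).

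Of the polymerase and fork genes, 11 of 19 had a negative estimate, and the lowest p-values were those of Rfc4, Rfc1 and Prim1. Rfc4 and Rfc1 are subunits of the loader that places Pcna on DNA, and their estimates differed in sign, 0.57 (limma adjusted p = 0.0719) and -0.35 (0.183), and that of Prim1 was -0.67 (0.219). E2F, RB and MuvB factors had 14 of 19 negative estimates, with the lowest p for Tfdp1 (0.32, limma adjusted p = 0.11), E2f2 (-1.01, 0.265) and E2f8 (-0.74, 0.291). Centromere and cohesion genes were balanced, 6 of 12 negative, with Pttg1, Sgo2a and Spc24 at 0.33, -0.57 and 0.39 and limma adjusted p of 0.0996, 0.216 and 0.326. The other spindle and midbody genes had 10 of 11 negative estimates and a median of -0.37, the lowest of the 8 lists, but 0 had an unadjusted p under 0.05 in limma.

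The 5 genes outside the members whose pattern over the 6 libraries was most like the mean of the tested members were Fam69a, Rtel1, Rap2b, Gatm and Gm20632, with Pearson's r of log2(FPKM + 0.1) between 0.986 and 0.991. These values describe 6 points that share their libraries, and 65 of 18000 genes reached an r of 0.95. Gatm, for example, which makes the precursor of creatine, measured 1.49, 1.25 and 1.64 in WT and 1.14, 0.834 and 0.582 in Mc4r KO, and Rtel1, a DNA helicase, measured 1.35, 1.17 and 1.30 in WT and 1.16, 1.07 and 0.989 in Mc4r KO.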

How the data were processed

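RNA of 6 mouse hearts, 3 WT and 3 Mc4r KO, was sequenced from poly(A)-enriched libraries made with a NEBNext Ultra kit. Per the labels and the study's methods, the authors removed adapters and poor reads, used HISAT2 for alignment (version 2.0.5 in the submitters' processing notes, which also name CASAVA and mm10) and featureCounts for reads per gene, tested the groups with DESeq2 and deposited FPKM for each gene and library. Whether counting used strand, and which annotation release, are not given in the sources used here. Of the deposited gene identifiers, 99.8% were found in GENCODE M21, and 38 of the 40 members had the exon length of that release. The number of columns of values not matched to a library was 0. Multiplied by gene length, 100% of the FPKM values came out as whole reads (within 0.05 of a read, for values up to 2000 reads), which gave the read counts back.

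The members were matched by gene name. The members, their role groups and the other gene lists were chosen with earlier results of these data known. Groups came from the sample titles. The main test was limma (version 3.58.1, R 4.3.3, with the data.table package 1.17.8) with empirical Bayes trend on log2(FPKM + 0.1), since the unit is not a count, over genes whose mean FPKM reached 0.1 and with Benjamini-Hochberg adjustment over all of them, two-sided. A fold change is on that log2 scale and understates changes of low genes. The script was tested on simulated data. The p-values measure the spread between these mice. Exact permutation tests of 3 against 3 cannot give a p under 0.1 and are not used. The intervals of the log2 fold changes come from the limma standard errors and so also measure the spread between these mice. The floor of 3 reads covers counting error only.

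All members are named. Fold changes with errors and p-values were planned for members with an unadjusted p under 0.05, and values per library for these and the highest member of each role group. The errors and values of further members were added after their values were seen. Of the other cell cycle genes, those called were named or, with none called in a list, up to 3 with the lowest p. Cdkn2d was added after its values were seen. Exon overlaps and shared words of 50 bases were computed from GENCODE M21, and promoters were taken from RefSeq (GRCm38.p6). Alternatives were pseudocounts of 1 and 0.01, no filter, a mean FPKM of at least 1, quantile normalization, scaling outside the mitochondrial chromosome, the mitochondrial share as a covariate, a replicate block, limma voom on the reads, no trend, array weights, protein-coding genes only, and fits without each library. Counts of members without overlap, and of negative estimates, under other settings, and marker sums without the most abundant marker, were added after seeing the data. Python 3.11.15 with matplotlib 3.10.9 drew the figures.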

Additional observations from a re-analysis of the deposited data

How the results depend on the processing

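Across 18 alternatives, 0 members were called in 17, and with limma voom on the recovered reads 1 was (Mki67, log2 fold change -1.14). The log2 fold change of Mcm4 ranged from -0.63 to -0.32 and its limma adjusted p from 0.0809 to 0.524, and those of Mki67, over the 17 alternatives that tested it, from -1.16 to -0.32 and from 0.0463 to 0.652. No alternative gave a member that was higher at an unadjusted p under 0.05. The median log2 fold change of the members was negative in all 18. It was -0.11 with a pseudocount of 1, -0.45 with 0.01, -0.47 with scaling outside the mitochondrial chromosome, -0.46 with voom and between -0.39 and -0.23 without 1 library. The count of members lower at an unadjusted p under 0.05, 2 as reported, was 6 without the filter, 1 at a mean FPKM of at least 1, 8 with mitochondrial scaling, 1 with the mitochondrial covariate, 7 with voom, 7 without trend and 1 to 3 without 1 library, with 1 when WT replicate 1 or Mc4r KO replicate 2 was left out. Over all genes, in either direction, the count was 3761 of 18035 as reported, 3555 of 54532 without the filter and 3126 of 11297 at a mean of 1. It was 4159 of 18041 with mitochondrial scaling, 1948 with the covariate, 3965 with voom and 3264 without trend. Without 1 library it ran from 2517 to 5060. Lower genes alone were not counted in these settings, so the member counts have no matching share. The calls over all genes, 83 as reported, moved far more: 44 with a pseudocount of 1, 10 without the filter, 147 at a mean FPKM of at least 1, 49 with quantile normalization, 41 with mitochondrial scaling, 2 with the mitochondrial covariate, 317 with voom, 21 without trend, 435 with array weights and 204 over protein-coding genes. Of the calls, 68.7% were higher in Mc4r KO as reported and 39.0% with mitochondrial scaling. Without 1 library they ranged from 7 to 726, with 726 when WT replicate 3 was left out. With the replicate block 11 genes and 0 members were called, 3 members were lower at an unadjusted p under 0.05 and the median stayed at -0.31. Libraries of the same number did not deviate together (correlations of -0.14, 0.01 and -0.08 over 11297 genes). The groups were therefore compared unpaired, though with 3 libraries per group such correlations cannot exclude a pairing. The cause of these differences was not tested. Depth limits many members: 16 had under 20 reads on average, and 5 were not tested. In others, such as Cenpf and Mcm3, the spread between libraries was far beyond counting.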
